A study of Mus musculus with 4 samples.

Results

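The SOCS family comprises CIS, encoded by *Cish*, and SOCS1 to SOCS7, and its 8 genes were selected by name from the 25239 gene symbols counted in CD4+ T cells of mouse lung tumors. All 8 were listed in every library and all 8 passed the filter on low counts. RNA-Seq was performed on 4 libraries, 2 from WT mice and 2 from CD4/ALK4-KO mice (CD4CreERT2+/-/Acvr1b fl/fl), both on the C57BL/6 background, to compare T cells that can and cannot receive activin-A signals through ALK4, the receptor encoded by *Acvr1b*. In CD4/ALK4-KO mice a tamoxifen-inducible Cre under the *Cd4* promoter deletes *Acvr1b*, so cells that never activate this promoter keep the gene. The methods give male mice of 8 to 10 weeks, 75 mg/kg of tamoxifen on each of 5 days and intravenous inoculation of 500000 LLC-OVA cells, an ovalbumin-expressing Lewis lung carcinoma line. The labels place tumor excision at days 18 to 22, whereas the methods place euthanasia of these mice at days 16 to 20. The WT animals are described as littermates, and neither their Cre genotype, their tamoxifen treatment nor the number of mice per library is given in the sources used here.

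SOCS proteins are feedback inhibitors of cytokine receptors. Cytokine binding activates receptor-associated JAK kinases, which phosphorylate STAT factors. The STATs then induce several SOCS genes, whose products bind phosphorylated receptors or JAKs through an SH2 domain and recruit a ubiquitin ligase through the SOCS box. In T cells CIS and SOCS2 are classical products of STAT5 signaling downstream of IL-2 and related cytokines, SOCS1 restrains interferon-γ and common gamma chain cytokine signals, and SOCS3 restrains receptors that use gp130, such as that of IL-6. SOCS3 is also induced in macrophages, neutrophils and stromal cells, so that no member is restricted to T cells.

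The libraries held 11823908 to 13943237 counts, of which the SOCS family took 4138 to 4605. The targeted gene *Acvr1b* had 426 and 342 counts in the WT-labelled libraries and 322 and 445 in the CD4/ALK4-KO-labelled ones, and thus did not separate them (log2 fold change 0.16, standard error (SE) 0.24, adjusted p = 0.66, edgeR's quasi-likelihood test). The 15 T cell markers were all detected and all higher in the CD4/ALK4-KO-labelled libraries, where they summed to 2843 to 2946 CPM (counts relative to the TMM-scaled library size) against 511 to 559 in the WT-labelled libraries. In the WT-labelled libraries the 11 macrophage markers (6448 to 7304 CPM) and the 7 fibroblast markers (6712 to 7307 CPM) were therefore more abundant than the T cell markers, and no marker of these lists was at 0 in any library. In the CD4/ALK4-KO-labelled libraries the macrophage markers summed to 5989 to 6268 CPM, with 1 of 11 called, and the fibroblast markers to 3965 to 4773 CPM, with 4 of 7 lower. Both sums were above that of the T cell markers in these libraries, too. However, *Lyz2* alone gave 4758 and 4227 CPM of the macrophage sum there, and a sum without *Lyz2* was not computed. Neutrophil markers (934 to 1458 against 944 to 1518 CPM, 2 of 8 higher) overlapped between the genotypes. B cell markers (52.6 to 62.0 against 174 to 338 CPM, 6 of 6 higher), NK or CD8 T cell markers (168 to 233 against 698 to 778, 8 of 8 higher) and dendritic cell markers (96.8 to 104 against 217 to 243, 3 of 6 higher and 1 lower) were separated, as were those of epithelium (856 to 858 against 413 to 559, 4 of 6 lower and 2 higher) and endothelium (50.9 to 68.5 against 122 to 134, 1 of 5 higher and 1 lower, with *Pecam1* alone at 22.5 and 42.7 against 106 and 108 CPM and a list median log2 fold change of -0.67), whereas erythroid markers overlapped (2140 to 4692 against 1232 to 3062, 1 lower of 3 tested). In such bulk samples fewer cells of a type and less RNA per cell cannot be told apart. For this reason each SOCS gene is also given on a CD3 scale, which sets the libraries equal in the summed counts of 4 T cell receptor complex genes (*Cd3d*, *Cd3e*, *Cd3g* and *Cd247*). It moved the log2 values of all genes tested by -2.18 at the median.

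Promoter sequence was inspected because several SOCS genes are induced through STAT sites of the form TTCNNNGAA, which reads the same on both strands. RefSeq windows of 250 bases before to 50 bases after the gene start (GRCm38.p6) were at hand for 4 of the 8 genes, *Cish*, *Socs1*, *Socs3* and *Socs4*. The motif was present in 8.3% of all 32851 windows. The *Cish* window held 2 matches, which began 0 and 11 bases after the RefSeq start, and the *Socs3* window held 1, which began 154 bases before it. The stretches below are those with a match, with the motif in capitals, for *Cish* at chr9:107296654-107296683 on the plus strand and for *Socs3* at chr11:117969502-117969530 on the minus strand.
*Cish*: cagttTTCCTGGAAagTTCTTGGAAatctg
*Socs3*: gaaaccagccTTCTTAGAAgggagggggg
These letters did not occur in the windows of *Socs1* and *Socs4*. The wider spacing TTCNNNNGAA, which STAT6 prefers and which also reads the same on both strands, was in 6.95% of all windows and in none of these 4. The printed stretches of *Cish* and *Socs3* lie inside the gene spans given below (GENCODE M21), which start further upstream. Their position relative to the gene start thus depends on the annotation. Matches of this kind are a description of the sequence, and binding was not measured.

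Of the 8 genes, 3 (*Cish*, *Socs2* and *Socs1*) were higher in the CD4/ALK4-KO-labelled libraries at an adjusted p under 0.05 and none was lower, while *Socs3*, the most abundant member, differed by less than the spread between the WT replicates. This is 37.5% of the family, beside 17.4% of the 13919 genes tested that were called higher, 15.4% that were called lower and 32.8% in either direction. The family's median log2 fold change was 0.48, against -0.0082 for all genes tested. At an unadjusted p under 0.05 there were 4 members higher and 1 lower, and DESeq2's Wald test called 2 higher and 0 lower. In CPM the groups did not overlap for 6 of the 8 members, 5 above and 1 below, and this was so for 66.7% of all genes tested, 32.7% above and 34% below. On the CD3 scale none of the 8 was called higher and 7 were called lower, as were 92% of all genes, with 0.345% called higher.

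**Figure D1:**
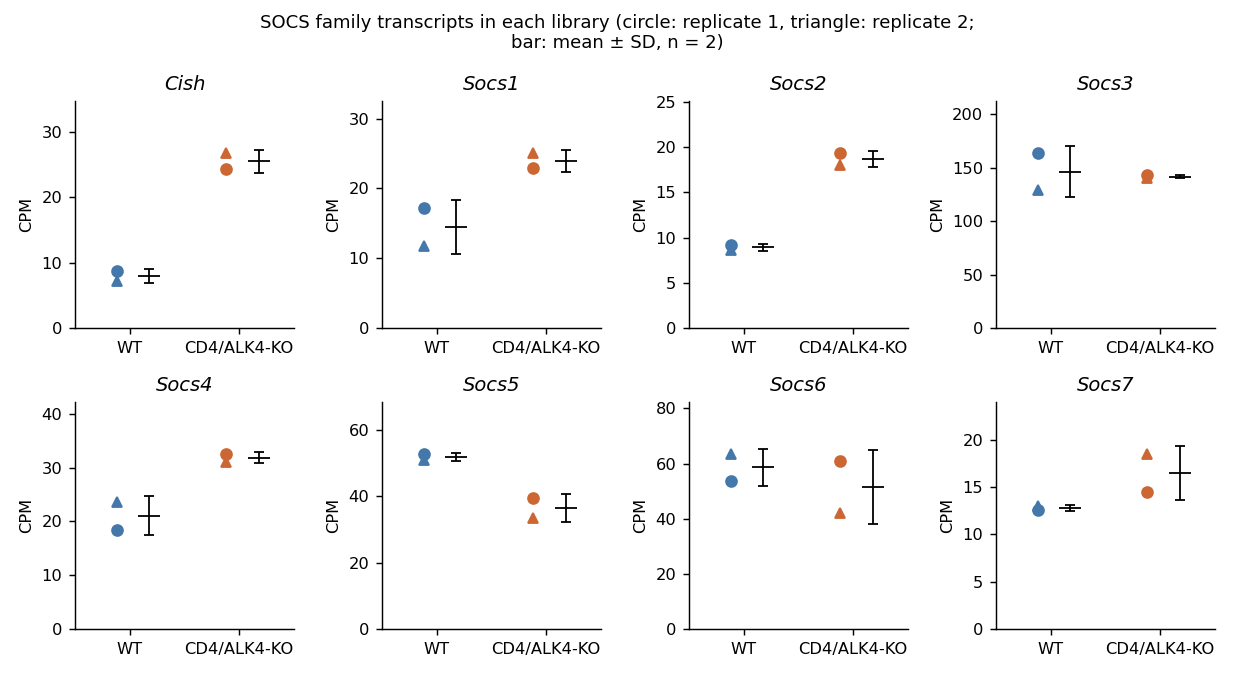
CPM (TMM-scaled) of the 8 SOCS family genes in each library, with WT in blue and CD4/ALK4-KO in orange and the mean ± SD of 2 libraries as black bars. *Cish*, *Socs1*, *Socs2*, *Socs4* and *Socs7* lie higher in both CD4/ALK4-KO libraries and *Socs5* lies lower, whereas the groups overlap for *Socs3* and *Socs6*. Only *Cish*, *Socs1* and *Socs2* passed the threshold on the adjusted p. Of all genes tested 66.7% did not overlap.

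*Cish* (chr9:107296026-107302784, GRCm38) encodes CIS, which binds phosphorylated receptors of the IL-2 family and limits STAT5 activation. It had 120 and 97 counts in the WT-labelled libraries and 289 and 330 in the CD4/ALK4-KO-labelled ones, or 8.76 and 7.17 against 24.3 and 26.7 CPM. Both CD4/ALK4-KO libraries were above both WT libraries, and the spread within each genotype (SD 1.12 and 1.73 CPM) was small beside the difference. The fold change was 3.20, or 1.68 on the log2 scale (SE 0.28, adjusted p = 7.6e-05), the largest of the family. Without any 1 of the 4 libraries it lay between 1.53 and 1.82 and past the threshold. On the CD3 scale it was -0.50 (95% interval -1.16 to 0.16, adjusted p = 0.15), the only member whose interval included 0 there. *Gm17040* and *Gm17041*, annotated on the opposite strand, cover 11.5% of the exon bases of *Cish*. The library kit does not mark strand, so that reads from these bases cannot be told apart by strand. Whether such reads were counted for *Cish* is not known, as the counting annotation and strand option are not given.

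*Socs2* (chr10:95385362-95417180) encodes a further STAT5-induced inhibitor, best known for limiting growth hormone signaling. It had 126 and 117 counts against 230 and 223, or 9.19 and 8.65 CPM in the WT-labelled libraries and 19.3 and 18.1 CPM in the CD4/ALK4-KO-labelled ones. Replicates lay close together in both genotypes, with an SD of 0.385 and 0.891 CPM. The log2 fold change was 1.07 (SE 0.28, adjusted p = 0.0054), a 2.09-fold rise. Its size hardly moved as libraries were left out (1.01 to 1.11), but the call was lost without WT replicate 1 (adjusted p = 0.076) or WT replicate 2 (adjusted p = 0.091, 0.00041 to 0.091 over the alternatives). *Socs2* was at -1.12 on the CD3 scale (95% interval -1.79 to -0.45).

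*Socs1* (chr16:10782240-10785536) encodes an inhibitor that blocks JAK kinases directly through a kinase inhibitory region, which it shares with SOCS3. It had 236 and 159 counts against 272 and 309, or 17.2 and 11.8 CPM in the WT-labelled libraries and 22.9 and 25.0 CPM in the CD4/ALK4-KO-labelled ones. The genotypes did not overlap, although the WT replicates lay further apart (SD 3.87 CPM) than the CD4/ALK4-KO replicates (SD 1.54 CPM). The log2 fold change of 0.72 (SE 0.27) was just past the threshold (adjusted p = 0.045). Leaving out WT replicate 2 gave 0.47 and leaving out WT replicate 1 gave 1.02, and the call was lost in both. The call was also lost without CD4/ALK4-KO replicate 2 (0.65), with the replicate number as a block, with upper quartile scaling and with DESeq2's Wald test. On the CD3 scale the value was -1.45 and *Socs1* was called lower (adjusted p = 9.5e-06, edgeR's quasi-likelihood test).

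*Socs3* (chr11:117966079-117970047) encodes the inhibitor of gp130 and G-CSF receptor signaling. It had 2240 and 1748 counts in the WT-labelled libraries and 1700 and 1734 in the CD4/ALK4-KO-labelled ones, or 163 and 129 against 143 and 140 CPM. Both CD4/ALK4-KO libraries thus lay between the WT libraries. The log2 fold change was -0.047 (SE 0.21, 95% interval -0.49 to 0.39, adjusted p = 0.89), and leaving out WT replicate 1 gave 0.13, WT replicate 2 -0.22. *Socs3* was at -2.23 on the CD3 scale, close to the median shift of all genes. Its level relative to macrophage markers also overlapped, with 25.4 and 17.7 counts per 1000 macrophage marker counts in the WT-labelled libraries and 22.8 and 23.5 in the CD4/ALK4-KO-labelled ones.

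*Socs4* (chr14:47276931-47296102) and *Socs5* (chr17:87107679-87137839) encode a pair of related proteins with long amino-terminal regions, both linked to degradation of the EGF receptor. *Socs4* had 253 and 319 counts against 387 and 384, or 18.5 and 23.6 CPM in the WT-labelled libraries and 32.5 and 31.1 CPM in the CD4/ALK4-KO-labelled ones. The groups did not overlap, but its log2 fold change of 0.60 (SE 0.25, 95% interval 0.085 to 1.11) did not pass the threshold (adjusted p = 0.068). *Socs5* went the other way, with 722 and 688 counts against 468 and 412, or 52.7 and 50.9 CPM in the WT-labelled libraries and 39.3 and 33.4 CPM in the CD4/ALK4-KO-labelled ones. Its log2 fold change was -0.51 (SE 0.22, 95% interval -0.96 to -0.057, adjusted p = 0.078). Both genes passed the threshold once a single CD4/ALK4-KO library was left out, *Socs4* without replicate 2 (0.62) and *Socs5* without replicate 1 (-0.60). The CD3 scale put *Socs4* at -1.59 and *Socs5* at -2.70, the lowest value of the family. Both were called lower there (adjusted p = 2.8e-07 and 4e-22, edgeR's quasi-likelihood test).

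*Socs6* (chr18:88665224-88927481) and *Socs7* (chr11:97362551-97398542) encode a further related pair, known for binding components of insulin and growth factor receptor signaling. *Socs6* had 736 and 858 counts in the WT-labelled libraries and 726 and 518 in the CD4/ALK4-KO-labelled ones, or 53.7 and 63.4 against 61.0 and 42.0 CPM. CD4/ALK4-KO replicate 1 lay between the WT libraries and replicate 2 below them. The log2 fold change was -0.19 (SE 0.23, 95% interval -0.66 to 0.29, adjusted p = 0.58), and 0.053 without CD4/ALK4-KO replicate 2. *Socs7* had 172 and 176 counts against 172 and 228, or 12.6 and 13.0 CPM against 14.4 and 18.5 CPM, and its log2 fold change was 0.36 (SE 0.28, 95% interval -0.21 to 0.94, adjusted p = 0.33). Leaving out CD4/ALK4-KO replicate 1 gave 0.56 for *Socs7*, and leaving out replicate 2 gave 0.17. Both lie below 0 on the CD3 scale, at -2.39 for *Socs6* and -1.81 for *Socs7*.

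**Figure D2:**
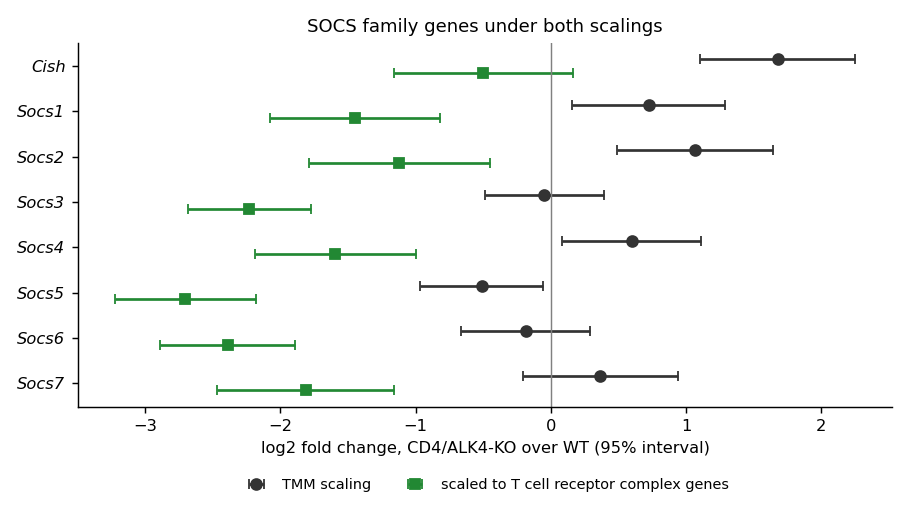
Log2 fold changes of CD4/ALK4-KO over WT with 95% intervals for the 8 SOCS family genes, with TMM scaling (black circles) and on the CD3 scale (green squares). *Cish* is highest on both scales, at 1.68 and -0.50, and *Socs5* is lowest on both, at -0.51 and -2.70.

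Levels were compared between members per kilobase, as RPKM from the TMM-scaled counts, with the union of annotated GENCODE M21 exons as length. *Socs3* came first in every library, at 50.6 ± 8.37 RPKM in the WT-labelled libraries and 49.0 ± 0.581 RPKM in the CD4/ALK4-KO-labelled ones (SD, n = 2). In the WT-labelled libraries it was followed by *Socs5* (8.07 ± 0.201), *Socs6* (5.16 ± 0.606), *Socs1* (4.98 ± 1.33), *Socs4* (3.06 ± 0.527), *Socs7* (1.76 ± 0.0448), *Cish* (1.24 ± 0.175) and *Socs2* (0.936 ± 0.0404). The neighbours *Socs6* and *Socs1* overlapped between replicates and the other neighbours did not. In the CD4/ALK4-KO-labelled libraries the order was *Socs3*, *Socs1* (8.23 ± 0.529), *Socs5* (5.66 ± 0.655), *Socs4* (4.63 ± 0.145), *Socs6* (4.54 ± 1.19), *Cish* (3.97 ± 0.270), *Socs7* (2.27 ± 0.391) and *Socs2* (1.96 ± 0.0935). There the neighbours *Socs4* and *Socs6*, *Socs6* and *Cish*, and *Socs7* and *Socs2* overlapped.

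The order below *Socs3* depended on the length used. The exon union of *Socs2* is 9531 bp, against 2222 bp for its principal transcript, and that of *Cish* 6419 against 2850 bp. Per kilobase of the principal transcript, *Socs2* was at 4.02 RPKM in the WT-labelled libraries and 8.41 in the CD4/ALK4-KO-labelled ones, *Cish* was at 2.79 and 8.95, and *Socs1*, whose length is the same in both, was at 4.98 and 8.23. In the CD4/ALK4-KO-labelled libraries *Cish* then came next to *Socs3* by its mean but overlapped with *Socs6*, *Socs2* and *Socs1*, while in the WT-labelled ones *Socs5* (11.1) came next.

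The share of each member in the summed family level does not depend on how the libraries are scaled to each other. Per kilobase of all exons *Socs3* made up 68.8% and 64.3% of the family in the WT-labelled libraries and 60.8% and 61.3% in the CD4/ALK4-KO-labelled ones. The share of *Cish* was 1.66% and 1.61% against 4.65% and 5.26%, and that of *Socs2* was 1.17% and 1.31% against 2.49% and 2.39%. The share of *Socs1* was 7.21% and 5.82% against 9.67% and 10.9%. *Socs5* went the other way, from 10.7% ± 0.997 to 7.05% ± 0.688 (SD, n = 2). Hence the genotypes differed in composition without overlap in these 5 members and in *Socs4*, but not in *Socs6* and *Socs7*. In CPM 66.7% of all genes tested did not overlap either, and a share over all genes was not computed for composition. These shares are given without a test, and an exact permutation test of 2 against 2 libraries cannot reach a p of 0.05. The summed family level itself overlapped, at 82.1 and 69.5 RPKM against 81.3 and 79.2 RPKM.

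**Figure D3:**
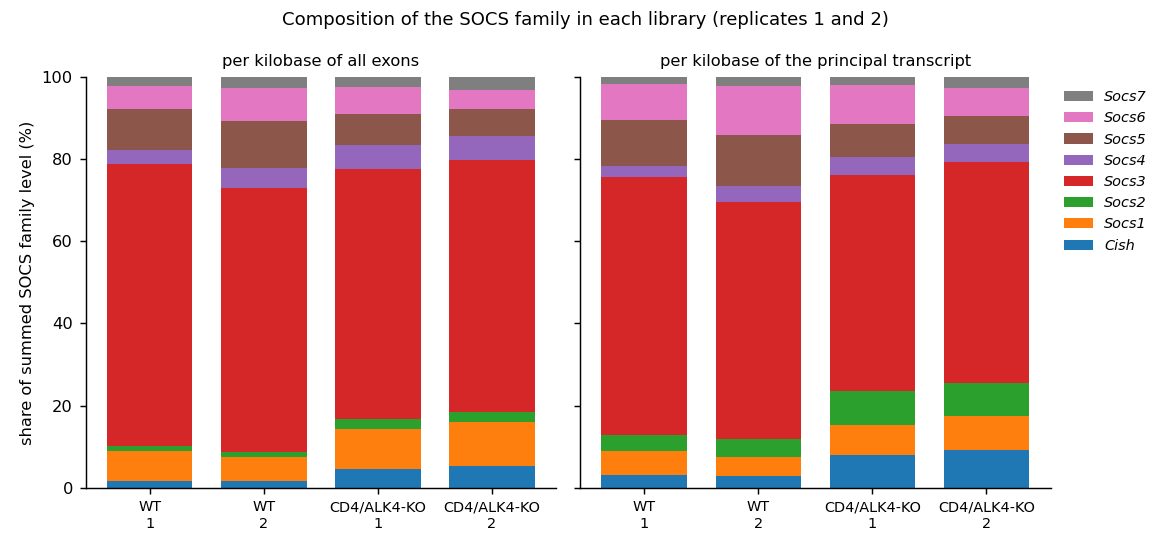
Share (%) of each of the 8 members in the summed SOCS family level in each of the 4 libraries, per kilobase of all annotated exons (left) and per kilobase of the principal transcript (right). *Socs3* is the largest share in every library, and the shares of *Cish* and *Socs2* are larger in both CD4/ALK4-KO libraries under either length.

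Ratios of counts between chosen members within a library use the same counts as the shares and are not a separate result. The log2 ratio of *Cish* to *Socs3* counts was -4.22 and -4.17 in the WT-labelled libraries and -2.56 and -2.39 in the CD4/ALK4-KO-labelled ones. For *Socs2* to *Socs3* it was -4.15 and -3.90 against -2.89 and -2.96. *Cish* also gained on *Socs2*, from -0.070 and -0.27 to 0.33 and 0.57, and *Socs4* on *Socs5*, from -1.51 and -1.11 to -0.27 and -0.10. The log2 ratio of *Socs7* to *Socs6*, whose shares overlapped, was -2.10 and -2.29 against -2.08 and -1.18.

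The T cell and macrophage markers moved differently between the genotypes, and the SOCS counts were therefore set against each. Per 1000 counts of T cell markers *Cish* had 15.7 and 14.0 counts in the WT-labelled libraries and 8.24 and 9.40 in the CD4/ALK4-KO-labelled ones, and *Socs3* had 292 and 253 against 48.5 and 49.4. All 8 members were lower in both CD4/ALK4-KO libraries on this measure. The T cell marker sum itself was 511 to 559 against 2843 to 2946 CPM. A share over all genes was not computed for this ratio, but on the CD3 scale 92% of all genes were called lower. Per 1000 counts of macrophage markers *Cish* had 1.36 and 0.982 against 3.87 and 4.46, *Socs2* had 1.43 and 1.18 against 3.08 and 3.02, and *Socs1* had 2.67 and 1.61 against 3.65 and 4.18. *Lyz2* alone gave 4278 and 5687 of the 6448 and 7304 CPM of this sum in the WT-labelled libraries. In the CD4/ALK4-KO-labelled ones it gave 4758 and 4227 of 6268 and 5989 CPM. These ratios thus mostly reflect *Lyz2*. *Csf1r*, another marker of the list, was higher (log2 fold change 0.70), and ratios to single markers were not computed. Nor was a share over all genes computed for the macrophage ratios, while in CPM 66.7% of all genes tested did not overlap. The part of cell composition in the values of the SOCS genes was not tested.

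**Figure D4:**
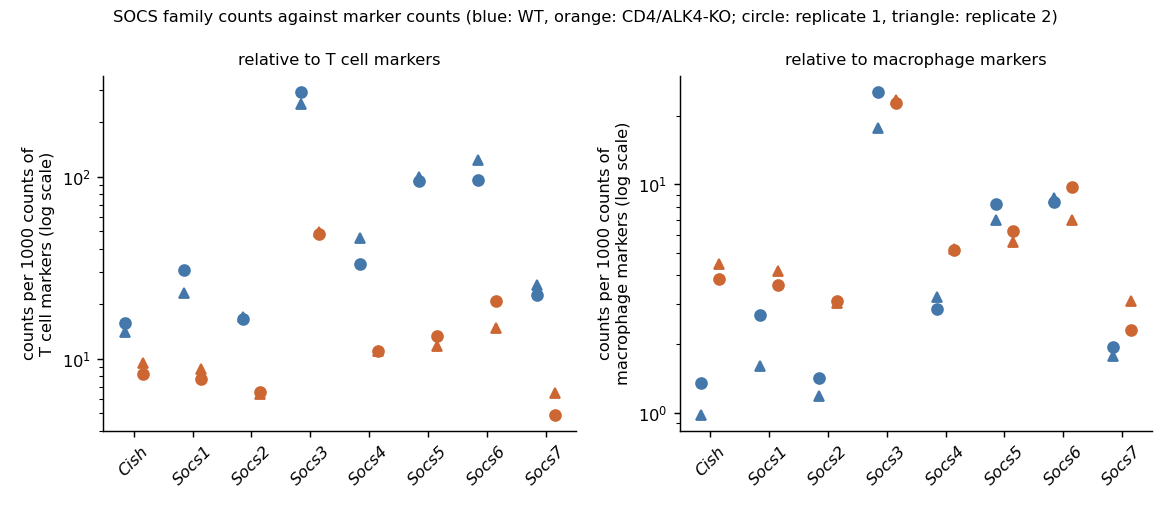
Counts of each SOCS family gene per 1000 summed counts of 15 T cell markers (left) and of 11 macrophage markers (right) in each library, on log axes. Every member is lower in CD4/ALK4-KO relative to T cell markers, from 292 and 253 to 48.5 and 49.4 for *Socs3*. On the CD3 scale 92% of all genes were called lower. Relative to macrophage markers, whose sum is mostly *Lyz2*, *Cish*, *Socs1*, *Socs2*, *Socs4* and *Socs7* lie higher, *Socs5* lies lower, and *Socs3* and *Socs6* overlap. A share over all genes was not computed for this ratio, while in CPM 66.7% of all genes tested did not overlap.

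The pathway in which SOCS proteins act was followed through lists of its other components. Of 92 such genes tested, 45 were higher (48.9%) and 8 lower in the CD4/ALK4-KO-labelled libraries, again beside 17.4% and 15.4% of all genes, and their median log2 fold change was 0.58. On the CD3 scale 1 was higher and 76 were lower, beside 0.345% and 92% of all genes. With TMM scaling the shares of all genes, 17.4% higher and 15.4% lower, stand beside the counts of each list below. The difference between the SOCS family and these lists was not tested.

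All 4 JAK kinases were higher. *Jak1* had 375 and 517 CPM in the WT-labelled libraries and 964 and 832 in the CD4/ALK4-KO-labelled ones, a log2 fold change of 1.01 (adjusted p = 0.0013). *Jak2* was at 1.04, *Jak3*, which pairs with the common gamma chain, at 1.23, and *Tyk2* at 0.59. *Tyk2* was only just called (adjusted p = 0.045), and it was no longer called without WT replicate 1 (0.65), WT replicate 2 (0.52) or CD4/ALK4-KO replicate 2 (0.43), while *Jak1* was not called without WT replicate 1 (0.79).

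Of the 6 STAT factors described 5 were higher. *Stat5a*, one of the factors that induce *Cish*, had 165 and 123 counts against 310 and 397 and a log2 fold change of 1.46 (SE 0.27, adjusted p = 3e-04), and its paralog *Stat5b* was at 1.55 (adjusted p = 1.2e-05). *Stat4*, which transduces IL-12, was at 1.59. *Stat2* was at 1.17, and *Stat3*, the factor downstream of gp130 that induces *Socs3*, at 0.93 (adjusted p = 0.0030). *Stat3* was at 0.82 without WT replicate 2, where it was not called. *Stat6*, downstream of IL-4, had 145 ± 18.2 against 183 ± 41.9 CPM and did not pass the threshold (0.34, adjusted p = 0.25). It was called higher without CD4/ALK4-KO replicate 1 (0.59) and lay at 0.083 without replicate 2.

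Receptors regulated by SOCS proteins were grouped by the chain they share. Of 8 common gamma chain receptor genes 6 were higher, among them *Il2ra*, the high-affinity IL-2 receptor subunit (7.86 ± 0.551 against 61.9 ± 1.02 CPM, log2 fold change 2.98, adjusted p = 2.5e-08). *Il2ra* was at 0.79 on the CD3 scale and was called there, too. *Il7r* (1.68) and *Il2rg* (1.87), the common gamma chain itself, were higher, and *Il4ra* was at 0.35 (adjusted p = 0.25). Of 12 receptors of the gp130 and myeloid group 5 were higher and none lower (0 also at an unadjusted p under 0.05 and by DESeq2). *Il6st*, which encodes gp130, was at 0.77 (adjusted p = 0.010) and lost its call without WT replicate 1 or WT replicate 2 (0.58 and 0.98), and *Il27ra* showed the largest rise of the group at 2.71. *Csf2rb* was at 0.91 and was not called without WT replicate 2 (0.78) or CD4/ALK4-KO replicate 2 (0.53). *Osmr*, the oncostatin M receptor, had 181 ± 8.10 against 135 ± 19.8 CPM and a log2 fold change of -0.42 (adjusted p = 0.14), and was called lower without CD4/ALK4-KO replicate 1 (-0.55).

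Of 9 receptor genes for interferons, IL-10, IL-12 and IL-23, 6 were higher. *Ifngr1* was at 1.29 and *Ifnar1* at 1.03, the latter not called without WT replicate 1 (0.92), whereas *Ifnar2* (0.33, adjusted p = 0.23) was not called. *Il23r* showed the largest rise at 2.26, with 22 and 24 counts against 146 and 50, and leaving out CD4/ALK4-KO replicate 1 gave 1.29, while leaving out replicate 2 gave 2.85. Of 6 hormone and haematopoietic receptors tested 1 was higher and 1 lower. The former was *Kit*, the stem cell factor receptor, at 1.68, and the latter *Ghr*, the growth hormone receptor that SOCS2 restrains, with 157 ± 23.4 against 84.8 ± 11.0 CPM (-0.89, adjusted p = 0.0031), which was not called without WT replicate 2 (-0.74). *Insr* was at 0.38 and *Igf1r* at -0.13, neither past the threshold.

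Of 14 cytokine ligand genes tested 5 were higher and 1 lower. *Ifng*, a strong inducer of *Socs1*, had 118 and 149 counts against 357 and 382, or a log2 fold change of 1.63 (adjusted p = 7.5e-05). *Osm* was at 0.79 and *Csf1*, the macrophage growth factor, at -0.69 (adjusted p = 0.043). *Il6* had 700 and 568 counts against 573 and 465 and did not pass the threshold (-0.12, adjusted p = 0.73). *Osm* was not called without WT replicate 2 (0.54) or CD4/ALK4-KO replicate 2 (0.47), and *Csf1* in none of the fits without WT replicate 1 (-0.46), WT replicate 2 (-0.90) or CD4/ALK4-KO replicate 1 (-0.31).

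Of 12 other inhibitors of JAK-STAT signaling 6 were higher and none lower (0 also at an unadjusted p under 0.05 and by DESeq2). The phosphatases *Ptprc* (CD45, 1.62) and *Ptpn6* (SHP-1, 1.41) were higher, as was *Ptpn1* (0.56, adjusted p = 0.042), which lost its call without WT replicate 1, WT replicate 2 or CD4/ALK4-KO replicate 2. The ubiquitin ligase gene *Cbl* showed the largest rise of this group, with 20.8 ± 2.58 against 78.8 ± 4.02 CPM (1.92, adjusted p = 1.2e-06). None of the 4 *Pias* genes, which encode STAT inhibitors, was called.

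Of 8 subunit and activation genes tested of the ubiquitin ligases that the SOCS box recruits, 5 were lower (6 at an unadjusted p under 0.05), beside 15.4% of all genes, and none was higher (0 likewise and by DESeq2), with a median log2 fold change of -0.65. *Elob*, which encodes elongin B, the direct partner of the SOCS box together with elongin C, had 207 ± 5.44 against 115 ± 7.82 CPM (-0.85, SE 0.21, adjusted p = 0.0038). *Cul5*, the cullin of this ligase (0.23, adjusted p = 0.46), *Cul2* (-0.17) and *Eloc*, which encodes elongin C (-0.52, adjusted p = 0.063), were not called, and *Cul5* was named after its value was seen. *Rbx1* was at -0.68 and *Nedd8*, the modifier that activates cullins, at -0.72. The calls of *Elob*, *Rbx1* and *Nedd8* were lost without WT replicate 1 or WT replicate 2, while their directions were kept, and with the replicate number as a block those of *Rbx1* and *Nedd8* were lost.

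Of 14 genes listed as targets of STATs 8 were higher and 1 lower. *Pim2* showed the largest rise, with 56 and 50 counts against 135 and 266 (2.08, adjusted p = 8.1e-05), and *Id2* was at 0.71 (adjusted p = 0.016), a call lost without WT replicate 1 (0.69) or WT replicate 2 (0.72). *Gbp2* (0.50, adjusted p = 0.070) and *Mcl1* (0.35, adjusted p = 0.21) were not called, although *Gbp2* was called with DESeq2's Wald test (0.51) and without CD4/ALK4-KO replicate 2 (0.63). *Bcl2l1*, which encodes the survival protein BCL-XL, was lower (-0.66, adjusted p = 0.027), but not without WT replicate 1 (-0.43) or WT replicate 2 (-0.87).

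**Figure D5:**
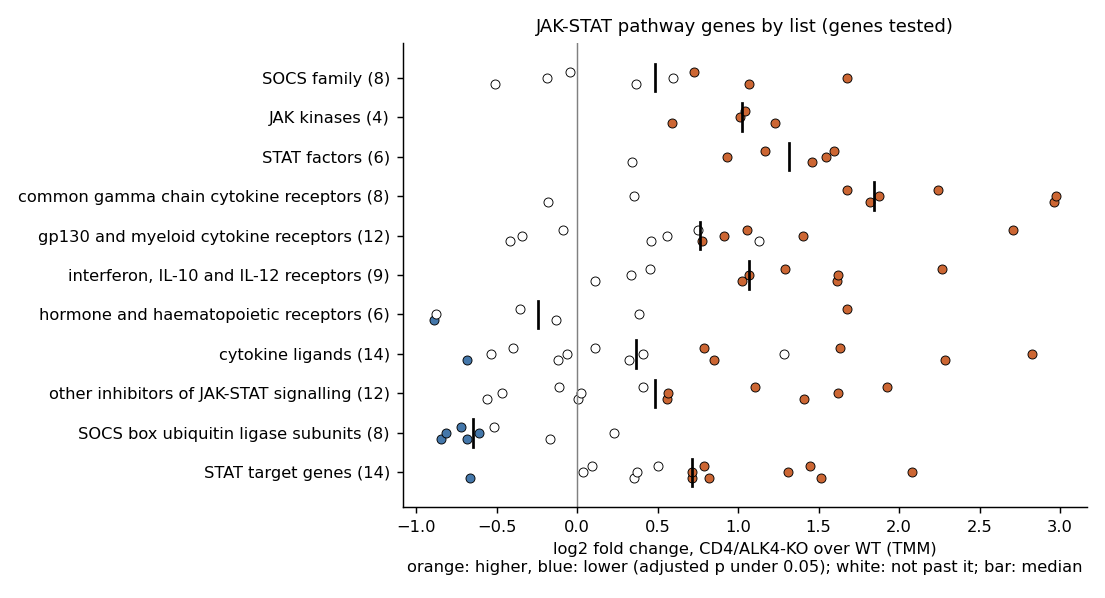
Log2 fold changes (TMM) of the SOCS family and of the other JAK-STAT lists, 1 point per gene tested, filled orange where higher and blue where lower at an adjusted p under 0.05, with the list median as a bar. All 4 JAK kinases and 5 of 6 STAT factors are higher, while 5 of 8 SOCS box ubiquitin ligase genes are lower. Of all genes tested 17.4% were called higher and 15.4% lower. On the CD3 scale all list medians lie below 0, as does the median of all genes tested (-2.19).

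Among 85 genes of these lists with a mean of at least 50 counts, the pattern nearest to that of each member was sought by the Euclidean distance of log2 CPM centered over the 4 libraries. For *Cish* it was *Stat5a* (distance 0.24), for *Socs2* it was *Jak2* (0.16), for *Socs1* it was *Osm* (0.31), and for *Socs3* it was *Csf3* (0.027). For *Socs4* it was *Gbp2* (0.18), for *Socs5* *Eloc* (0.053), for *Socs6* *Cul2* (0.12) and for *Socs7* *Insr* (0.037). With 4 libraries these distances describe closeness in these samples alone.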

How the data were processed

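RNA-Seq libraries (TruSeq RNA v2, 75 bp single-end reads) were aligned by the authors to mm10 with HISAT2 and counted per gene symbol (htseq-count, intersection-nonempty). The deposited values are raw counts without normalization. The annotation, the strand option and the tool versions are not given in the sources used here.

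The 13919 genes passing edgeR's filterByExpr were scaled with TMM and compared between genotypes by edgeR's robust quasi-likelihood test (glmQLFit and glmQLFTest, edgeR 4.0.16, R 4.3.3), without further terms. P-values were adjusted over all of them by Benjamini-Hochberg, with a threshold of 0.05. The SE of a log2 fold change is its size over the root of the F statistic. Replicates differed by more than sampling noise (chi-square per degree of freedom 16.0 for WT and 28.7 for CD4/ALK4-KO). They are described as biological, without saying which mice each holds. The p-values therefore rest only on the spread between these 2 libraries per genotype, which the test moderates for each gene with that of the other genes. Exons and positions are those of GENCODE M21 (GRCm38), and the principal transcript is the longest one tagged as APPRIS principal 1.

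The SOCS members and all lists were chosen with earlier results of these data known. A listed gene is not reported here and was left out of the list counts. The genes named are all members, JAKs and STATs, and of other lists the 3 with the highest mean CPM and the largest called rise and fall whose counts averaged 50 or more without overlap of the genotypes, together with the gene nearest in pattern to each member. Alternatives were DESeq2 1.42.0 (size factors, Wald test), upper quartile scaling, the CD3 scale (*Trac*, *Trbc1* and *Trbc2* were not used here), other filters (none, or 10 counts or more in each library), the replicate block, other lengths and each library left out. Samples with the same replicate number did not deviate together (r = -0.263 over 13919 genes).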

Additional observations from a re-analysis of the deposited data

How the results depend on the processing

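Over 52 named genes and 12 alternatives, 514 of 624 values kept direction and side of the threshold, 51 lost and 17 gained a call, and 42 changed sign, 36 of them on the CD3 scale. DESeq2's size factors and both other filters on low counts changed no call among these genes. The cause of the changes was not tested, except that the CD3 scale lowers every value by its construction (median shift -2.18) and leaving out a library leaves 3.

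SOCS family genes called higher numbered 0 on the CD3 scale and 1 to 3 with each library left out, against 3. Those called lower numbered 7 on that scale, 1 with upper quartile scaling and 0 to 1 with each library left out, against 0. Other JAK-STAT genes called higher numbered 1 on that scale, against 45. Those called lower numbered 76 on that scale, 3 with the replicate block and 1 to 9 with each library left out, against 8. All genes called were 48 higher and 12803 lower on that scale, and 1103 to 2923 higher and 754 to 2618 lower with each library left out.

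The numbers give no pairing in the labels. With the replicate number as a block, SOCS genes called were 2 higher and 0 lower, and all genes called 1768 higher and 1444 lower. A crossed pairing, added after seeing the data, called 4 SOCS genes higher and 1 lower and 3118 and 3037 of all genes.

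On the CD3 scale the log2 fold changes of opposite sign were *Cish* -0.50, *Socs1* -1.45, *Socs2* -1.12, *Socs4* -1.59, *Socs7* -1.81, *Acvr1b* -2.01, *Jak1* -1.19, *Jak2* -1.14, *Jak3* -0.94, *Tyk2* -1.59, *Stat2* -1.01, *Stat3* -1.24, *Stat4* -0.60, *Stat5a* -0.71, *Stat5b* -0.63, *Stat6* -1.82, *Il7r* -0.53, *Il2rg* -0.32, *Il4ra* -1.82, *Il6st* -1.42, *Csf2rb* -1.25, *Ifngr1* -0.89, *Ifnar1* -1.16, *Ifnar2* -1.85, *Insr* -1.79, *Kit* -0.51, *Osm* -1.38, *Ifng* -0.55, *Ptprc* -0.59, *Ptpn6* -0.77, *Ptpn1* -1.62, *Cbl* -0.27, *Gbp2* -1.69, *Mcl1* -1.83, *Id2* -1.48 and *Pim2* -0.080. With a library left out, *Socs3* (0.13) and *Il6* (0.023) without WT replicate 1, *Socs6* (0.053), *Il6* (0.043) and *Acvr1b* (-0.065) without CD4/ALK4-KO replicate 2, and *Igf1r* (0.11) without CD4/ALK4-KO replicate 1 changed sign, and none of these was called. Their other extremes were -0.22 for *Socs3*, -0.45 for *Socs6*, -0.27 for *Il6*, 0.39 for *Acvr1b* and -0.39 for *Igf1r*.

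The differences in family share (CD4/ALK4-KO minus WT, in percentage points) kept their direction with other lengths. They were 4.92 for *Cish*, 2.47 for *Socs1*, 2.63 for *Socs2*, 2.62 for *Socs4*, -5.61 for *Socs5* and -3.49 for *Socs6* from counts not divided by length, against 3.32, 3.75, 1.20, 1.66, -3.65 and -1.26. With the principal transcript, an alternative added after seeing the data, they were 5.64 for *Cish*, 2.69 for *Socs1* and 3.81 for *Socs2*. With each library left out, they ran from 3.02 to 3.62 for *Cish*, 3.06 to 4.45 for *Socs1*, 1.14 to 1.27 for *Socs2*, -7.77 to -3.26 for *Socs3*, 0.829 to 2.49 for *Socs4*, -4.35 to -2.94 for *Socs5*, -2.40 to -0.121 for *Socs6* and 0.107 to 0.869 for *Socs7*. With 97 to 2240 counts per library, the low members *Cish*, *Socs2* and *Socs7* carry the largest standard errors of the family.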
